A study of Mus musculus with 16 samples.

Results

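Pericytes were taken from 16 Drop-seq libraries of the hypothalamus-POA, the hypothalamus with its preoptic area. Drop-seq pairs each cell with a barcoded bead in a droplet, and transcripts are counted as unique molecular identifiers (UMIs) at their 3′ ends. A barcode was kept when its gene number lay above 200 and below 4000 and mitochondrial genes took less than 15% of its UMIs. A kept barcode was gated as a pericyte when it held a UMI of at least 2 of the 6 genes Kcnj8, Higd1b, Vtn, Abcc9, Rgs5 and Pdgfrb, including Kcnj8, Higd1b or Vtn. The gate allowed at most 1 UMI of the smooth muscle genes Acta2, Myh11 and Tagln together, and at most 1 of 12 genes of other cell types (Mog, Mag, Agt, Aqp4, Snap25, Syt1, Cldn5, C1qa, C1qb, Pdgfra, Tmem212 and Dcn). The gate held 2075 of 55675 kept barcodes (3.73%), with 44 to 268 in each library.

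Each library came from 1 female mouse of a mixed CD-1;129P2 background, aged 8 to 10 weeks when treatment began. The mice were 3 wild-type given oil, 5 wild-type given tamoxifen, 4 Esr1cKO given oil and 4 Esr1cKO given tamoxifen. All received 28 daily subcutaneous injections, of corn oil or of tamoxifen, a modulator of estrogen receptors, at 0.1 mg/kg. Esr1cKO mice carried a floxed estrogen receptor gene and a Cre transgene under Nkx2-1, a gene of the embryonic ventral hypothalamus, and Cre-negative littermates were the wild-type controls. Counts of 3′ tags do not read the deleted part of Esr1, so neither the genotype nor a deletion in pericytes could be checked in these barcodes.

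Pericytes are mural cells that sit in the basement membrane of capillaries, in contact with endothelial cells, and are recruited there by PDGF-B acting on the receptor Pdgfrb. Smooth muscle cells are the mural cells of arterioles and contract through an actin and myosin apparatus. Kcnj8 encodes the pore of a potassium channel that opens when ATP falls, and Abcc9 encodes its sulfonylurea receptor subunit. Both genes are widely used to tell brain pericytes from other cells.

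Kcnj8 lies on the minus strand at chr6:142564837-142571614 (mouse build GRCm38.p6, RefSeq) and Abcc9 at chr6:142587862-142702766. The genes are 16247 bases apart, with 0 annotated genes between them. Sequences just upstream of Kcnj8, a gene that marked the gated barcodes, and of Myl9, a myosin light chain of the contractile apparatus that was far higher in smooth muscle cells, are shown because they stand for the mural genes that separate these cell types. The first covers chr6:142571615-142571864 (minus strand) and the second chr2:156775214-156775407 (plus strand). Capitals mark a CArG box, the element bound by serum response factor, which was searched for by name on both strands.
Kcnj8 upstream: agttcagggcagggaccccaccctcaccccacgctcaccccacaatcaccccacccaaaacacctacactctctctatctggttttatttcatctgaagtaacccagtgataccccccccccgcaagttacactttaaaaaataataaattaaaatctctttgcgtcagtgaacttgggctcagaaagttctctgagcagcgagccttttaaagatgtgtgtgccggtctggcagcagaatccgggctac
Myl9 upstream: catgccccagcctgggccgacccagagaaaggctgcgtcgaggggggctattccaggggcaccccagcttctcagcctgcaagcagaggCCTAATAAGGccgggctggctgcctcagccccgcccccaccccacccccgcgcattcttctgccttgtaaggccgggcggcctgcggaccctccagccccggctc
The 56 bases nearest the start in the promoter table were left out for Myl9, and the box began 161 bases before that start. A CArG box was in 439 of 27025 RefSeq promoters (1.62%), in 2 of the 14 contractile genes that matched the table, and in 0 of the 4 rule markers that matched. A match of letters is a description, and its absence from this window says nothing of the factor.

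Features of the libraries bear on every result that follows. The libraries of wild-type oil mouse 3 and Esr1cKO tamoxifen mouse 3 stood apart: on the first principal component of all kept barcodes (57.9% of the variance over 13722 genes) they lay at 104 and 101, and the other libraries lay between -35.6 and -4.9. On the first component of the pericyte gate alone (22.4% over 5265 genes) they lay at 48.6 and 43.6. Wild-type oil mouse 1 lay opposite, at -44.6, and the others between -7.69 and -0.336. Wild-type oil mice 1 and 3 thus both stood apart within the gate. In the libraries of wild-type oil mouse 3 and Esr1cKO tamoxifen mouse 3, 477 gene symbols that had UMIs in all other 14 libraries were at 0. The barcodes of these 2 libraries had been deposited down to 100 genes, against 20 in the others. In addition, the libraries of wild-type tamoxifen mice 4 and 5 and Esr1cKO mice 4 of both treatments shared 303 to 359 kept barcodes per pair, and 83 of the 2075 gated barcodes were kept in more than 1 library. The profiles of a shared barcode in such a pair had a median correlation across genes of 0.585 to 0.634, against 0.157 to 0.164 for the next barcode in the list, and why was not tested. Last, the endothelial content of the gated barcodes, described below, differed between libraries. Neither the day of collection nor a batch was given in the labels.

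The gated barcodes held 2079180 UMIs, with a median of 678 UMIs and 512 genes per barcode. Their UMIs per library ran from 37469 to 265037. The gate genes are given as a description, since they chose the barcodes. Rgs5, a brake on G-protein signalling, was detected in 96.7% of the gated barcodes, Vtn (vitronectin) in 87.6%, Higd1b, a gene of the hypoxia-inducible domain family, in 49.3%, Abcc9 in 32.3%, Kcnj8 in 31.1% and Pdgfrb in 30.8%. Kcnj8 had a UMI in 1.42% of endothelial-gated barcodes, 1.47% of smooth muscle barcodes and 0.103% of oligodendrocytes, whose median depths were 749, 722 and 789 UMIs. The gate held 80.0% of all Kcnj8 UMIs of the kept barcodes, which the rule itself favoured.

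Markers were not found evenly. Of the gated barcodes, 643 had 2 of the markers, 621 had 3, 485 had 4, 242 had 5 and 84 had all 6. Both channel subunits were detected in 291, Kcnj8 without Abcc9 in 355 and Abcc9 without Kcnj8 in 380. At these depths a gene without a UMI cannot be read as absent from the cell. Vtn was the only one of Kcnj8, Higd1b and Vtn in 752 barcodes, so that much of the gate rested on the transcript of a secreted protein and another marker.

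The members just inside and outside the thresholds were alike in some genes and not in others. The 643 barcodes with exactly 2 markers had Kcnj8 in 6.38% and Vtn in 73.4%, and the 389 barcodes left out for having only 1 marker had Kcnj8 in 5.91% and Vtn in 79.4%. Higd1b was in 22.7% of the first and 14.7% of the second. Their median shares of UMIs on endothelial genes, a measure described below, were 2.51% and 0.149%. The 785 barcodes with 1 gene of another cell type had a median of 1216 UMIs and Kcnj8 in 29.6%, and the 233 left out for having 2 had 1794 UMIs and Kcnj8 in 23.2%. The 179 with 1 smooth muscle UMI had Kcnj8 in 24.6%, and the 104 left out for having 2 had it in 13.5%.

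Levels were taken from UMIs summed over the gated barcodes of each library and scaled to 1000000 UMIs in all (CPM). Kcnj8 reached 427, 254 and 545 CPM in the wild-type oil mice and 241, 548, 521, 455 and 783 CPM in the wild-type tamoxifen mice. It reached 336, 337, 650 and 253 CPM in the Esr1cKO oil mice and 418, 348, 534 and 501 CPM in the Esr1cKO tamoxifen mice. The 4 groups overlapped, with the lowest and the highest value both in wild-type tamoxifen mice. Over the 16 libraries Kcnj8 averaged 447 ± 151 CPM (SD, n = 16), Abcc9 480 ± 118, Pdgfrb 417 ± 124, Higd1b 772 ± 138, Vtn 2781 ± 760 and Rgs5 6917 ± 1214. In endothelial-gated barcodes Rgs5 still reached 1739 ± 633 CPM, and in smooth muscle barcodes 5661 ± 1860.

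**Figure D1:**
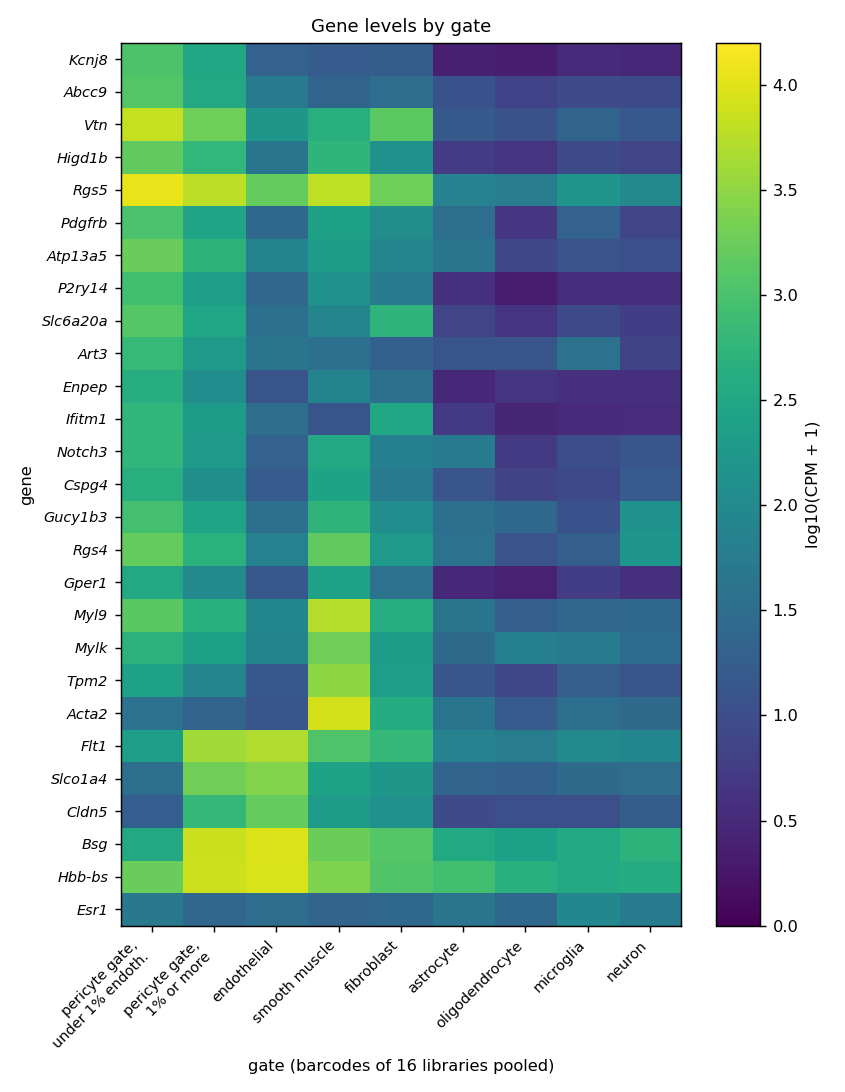
Pooled level of marker and role genes (rows) in barcodes gated as each cell type (columns), as log10 of CPM plus 1 on a color scale, with brighter colors for higher levels and the pericyte gate divided at 1% endothelial UMIs. Kcnj8 and Abcc9 are brightest in the pericyte columns, the contractile genes in smooth muscle, and the endothelial genes Flt1 and Bsg are high in the pericyte barcodes with 1% or more endothelial UMIs.

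The label was then checked against the markers of the cells that pericytes touch. A list of 16 endothelial genes other than Cldn5, among them Flt1 (a VEGF receptor), Bsg (basigin) and Slc2a1 (the glucose transporter of the blood-brain barrier), took a median of 2.05% of the UMIs of a pericyte-gated barcode. The share was 4.00% in endothelial-gated barcodes and 0.0827% in smooth muscle barcodes. The distribution over the pericyte gate had a peak at 0 and a broad peak near 3%. With 1% as the division, a value chosen after the data were seen, 820 barcodes (39.5%) lay below and 1255 (60.5%) at or above it, and 139 lay between 0.5% and 1.5%. In the smooth muscle gate 87.0% of barcodes lay below 1%, and in the endothelial gate 0.894%.

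**Figure D2:**
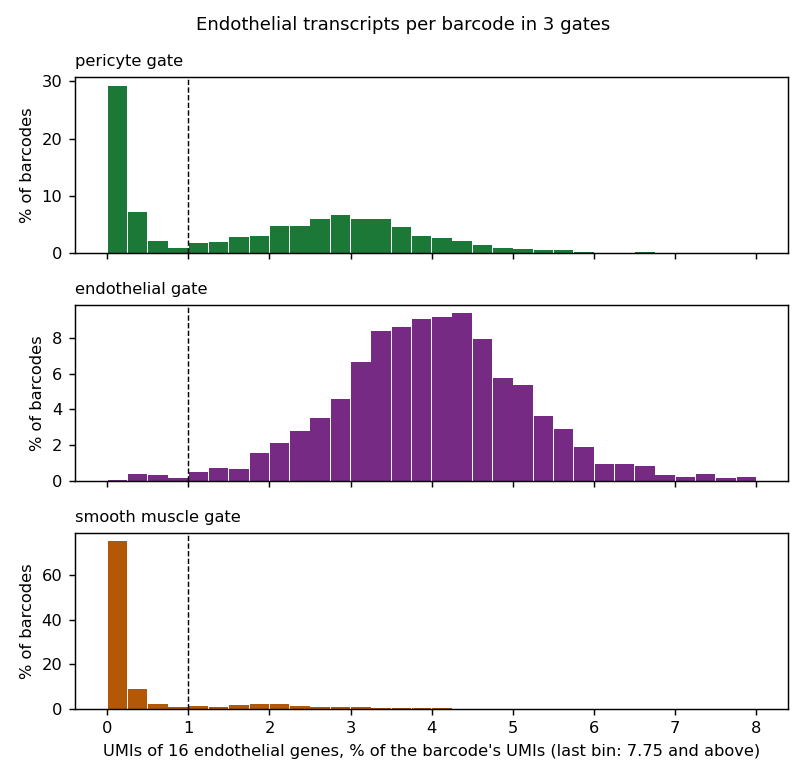
Percent of the barcodes of each gate (y) by the percent of their UMIs on 16 endothelial genes (x) in the pericyte, endothelial and smooth muscle gates, with a dashed line at 1%. The pericyte gate fills both the range of the smooth muscle gate near 0 and that of the endothelial gate, with 820 barcodes left of the line and 1255 right of it.

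The barcodes below 1% were shallow, with a median of 404.5 UMIs against 1083 above it, and 478 of the 820 held no endothelial UMI. Both classes held pericyte marker UMIs in like number, 11.5 per barcode below and 12.7 above. Levels of pericyte genes in CPM were lower in the deeper class. Pooled over libraries, Kcnj8 stood at 1070 CPM below 1% and 317 CPM at or above it, and Vtn at 6893 and 1863 CPM. Bsg ran the other way, at 352 and 7347 CPM, and the endothelial-gated barcodes held 8880 CPM. Bsg was among the genes that divided the classes, and Kcnj8 and Vtn chose the barcodes, so these values are a description. The 4 hemoglobin genes summed to 4537 CPM below 1% and 17810 CPM above it, against 22031 CPM in the endothelial gate. The barcodes of the larger class held transcripts of pericytes and of endothelial cells together, and whether a barcode stood for 1 cell was not tested. The barcodes are therefore called the pericyte gate in the comparisons.

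Genes of other cell types also took more of the shallow class. The 9 fibroblast genes summed to 3704 CPM below 1% and 481 CPM above, led by the growth factor Igf2 at 1264 and 175 CPM. The 11 astrocyte genes summed to 2329 and 783 CPM, the 10 oligodendrocyte genes to 2358 and 1344 CPM, the 10 neuronal genes to 1581 and 517 CPM and the 10 microglial genes to 130 and 78.9 CPM. The part of these transcripts in the results was not tested.

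A UMI of Cldn5, the tight junction gene that the gate allowed, went with the other endothelial genes inside every library. The endothelial share was 3.22% ± 0.27 in barcodes with a Cldn5 UMI and 1.93% ± 0.32 in those without (SD, n = 16 libraries). The difference averaged 1.28 percentage points and was positive in 16 of 16 libraries. These values are a description, since Cldn5 was part of the gate. Barcodes with Cldn5 were not the only ones with endothelial transcripts, since 558 gated barcodes had a Cldn5 UMI and 1255 lay at or above 1%.

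The share of barcodes below 1% was not the same in all libraries. It ran from 6.98% in Esr1cKO oil mouse 1 to 52.9% in Esr1cKO oil mouse 3. In the order of the library numbers in the labels, it was 6.98% to 31.8% in libraries 1 to 4, 25.7% to 37.7% in 5 to 8, 40.1% to 52.9% in 9 to 12 and 39.5% to 51.8% in 13 to 16. The lowest value in libraries 9 to 16 was above the highest in 1 to 8. Every group had libraries in both ranges, so the split by library number crossed genotype and treatment.

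**Figure D3:**
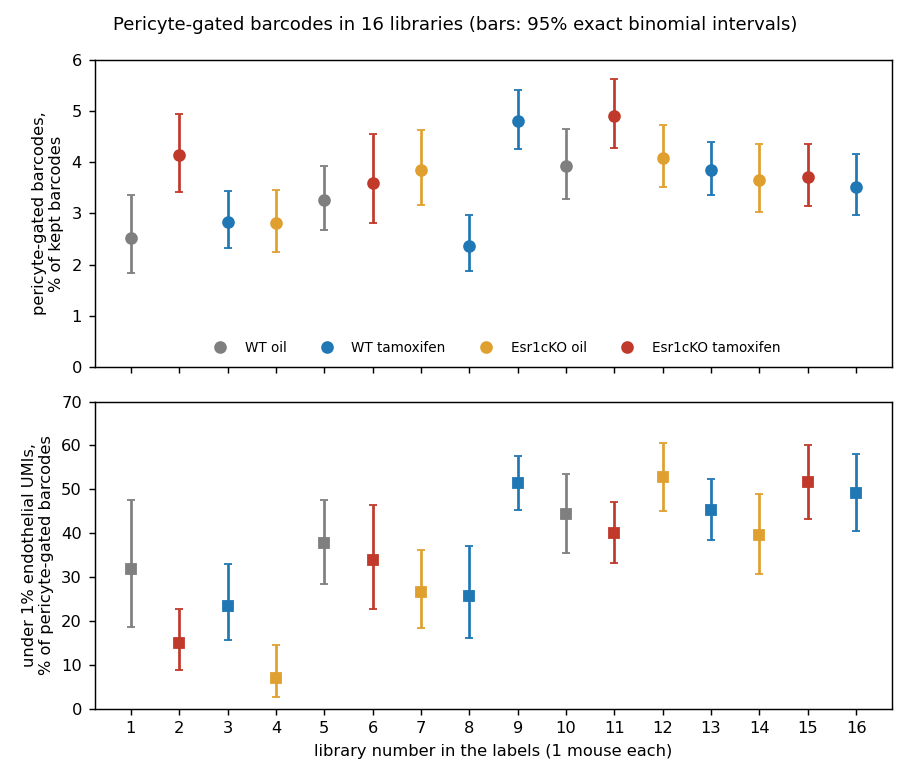
For each of the 16 libraries in the order of their numbers, the percent of kept barcodes in the pericyte gate and the percent of gated barcodes with under 1% endothelial UMIs, as points with exact 95% binomial intervals. The first runs from 2.37% to 4.91% and the second from 6.98% to 52.9%, lower in libraries 1 to 8 than in 9 to 16.

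The first comparison asked how pericyte-gated barcodes differed from their neighbours in the vessel wall, in the same libraries. Cells of both gates were chosen by genes counted in the same barcodes, so only genes that neither gate used were tested, by edgeR's quasi-likelihood test with the library as a block. Against endothelial-gated barcodes (1901 barcodes), 381 of 2723 genes were higher in the pericyte gate (14%) and 480 were lower (17.6%), at an adjusted p under 0.05. Against smooth muscle barcodes (1499), 574 of 2161 genes were higher (26.6%) and 508 lower (23.5%). The filter on low counts asked for 77.4 CPM in 15 libraries in the first comparison, and 305 genes reached this in the pericyte gate alone and 169 in endothelium alone. In the second, 419 reached it in the pericyte gate alone and 207 in smooth muscle alone. Passing through 1 gate alone favours a difference, so the values of such genes are given without a p, as a description. So are the counts and medians of lists, to be read beside the shares over all genes. For 1096 genes of the first comparison and 753 of the second, neither gate met the filter alone. The comparison with smooth muscle was also run with only the barcodes below 1% endothelial UMIs of both gates, a choice made after the data were seen. There 154 of 557 genes were higher in the pericyte gate (27.6%) and 167 lower (30%), over 15 libraries. The second split depends on the scaling: with relative log expression factors 815 were higher and 385 lower, and the median log2 difference of all genes moved from 0.03 to 0.18.

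Most other genes of mural identity stood higher in the pericyte gate than in endothelium. Of 14 tested among 23 listed, 12 were higher, 1 lower and 1 did not pass, with a median log2 difference of 3.21 beside -0.0066 over all genes. Atp13a5, a P-type ATPase, averaged 747 ± 165 CPM in pericyte-gated and 76.7 ± 44.0 in endothelial-gated barcodes (log2 difference 3.43 ± 0.13 SE), higher in 16 of 16 libraries. Notch3, the mural Notch receptor, averaged 254 ± 73 and 18.6 ± 16.8 CPM (3.76 ± 0.19). Cspg4, the NG2 proteoglycan, averaged 171 ± 71 and 13.5 ± 17.6 CPM (3.56 ± 0.25). These 3 genes passed the filter through the pericyte gate alone. Itih5, a protein of the hyaluronan matrix, was the member that went the other way, at 564 ± 107 against 792 ± 189 CPM.

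Against smooth muscle the mural identity list was divided, with 8 higher, 7 lower and 2 not passing among 17 tested (median -0.07). Ifitm1, an interferon-induced membrane protein that is also on the inflammatory list, averaged 281 ± 117 against 17.8 ± 24.4 CPM (log2 difference 4.36 ± 0.25), and Itih5 564 ± 107 against 57.0 ± 44.0 CPM (3.23 ± 0.16). Art3, an ADP-ribosyltransferase family gene, stood at 261 ± 101 against 34.6 ± 28.4 CPM (3.08 ± 0.19). Rgs4 was lower in the gate as a whole, at 686 ± 160 against 1593 ± 289 CPM (-1.19 ± 0.10), and with both gates below 1% its difference did not pass (-0.05, adjusted p = 0.71). In CPM Rgs4 was still lower there, at 1534 ± 393 against 1982 ± 251, in 14 of 15 libraries. The fitted value also depends on the scaling factors. Notch3 went from -0.37 to 0.82 (adjusted p = 1.2e-06) and Cspg4 from -0.56 to 0.59. Cspg4 then stood at 445 ± 185 against 383 ± 190 CPM, higher in 10 of 15 libraries. With both below 1%, 8 of the 12 list genes tested were higher than in smooth muscle, 1 was lower and 3 did not pass (median 0.51, beside -0.07 over all genes).

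Of the contractile genes, the 13 that could be tested were lower in the pericyte gate than in smooth muscle (median -2.85), and 4 of 7 were higher than in endothelium with 3 not passing. Myl9 ran from 621 ± 138 CPM in the pericyte gate to 5563 ± 1172 in smooth muscle (-3.14 ± 0.09, adjusted p = 1.3e-32), and stood at 96.3 ± 64.3 in endothelium. Pln, phospholamban, the brake of the calcium pump, averaged 9.10 ± 10.2 CPM in the pericyte gate, from 0 to 4 UMIs per library, against 1100 ± 326 CPM in smooth muscle. Lmod1, leiomodin, an actin filament nucleator of smooth muscle, averaged 21.7 ± 17.5 CPM, from 0 to 9 UMIs per library, against 951 ± 244 CPM. Both passed the filter only through their level in smooth muscle. Cald1, caldesmon, was the contractile gene with the most UMIs in the pericyte gate, at 2057 ± 394 CPM, between 376 ± 106 in endothelium and 6217 ± 1869 in smooth muscle. In pericyte-gated barcodes below 1%, differences from the undivided smooth muscle gate were smaller, at -1.84 for Myl9 and -0.38 for Cald1 (-1.55 in the whole gate). With both gates below 1%, all 10 contractile genes tested were lower (median -2.81). The order endothelium, pericyte gate, smooth muscle held for Cald1, Myl9 and Tpm1 (tropomyosin) in means, and Actn1, an alpha-actinin, stood at 115 CPM in endothelium, 86.1 in the pericyte gate and 561 in smooth muscle.

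Among ion channels and pumps, 6 of 7 were higher than in endothelium and 1 lower (14% and 17.6% of all genes). Against smooth muscle 3 of 10 were higher and 7 lower (26.6% and 23.5% of all genes). With both gates below 1% the second comparison had 3 higher and 4 lower of 7 (27.6% and 30% of all genes). Ano1, a calcium-activated chloride channel, averaged 165 ± 41 CPM in the pericyte gate, 23.6 ± 26.0 in endothelium and 310 ± 103 in smooth muscle. It was higher than in endothelium (3.06 ± 0.23), lower in the whole gate than in smooth muscle (-0.97 ± 0.11) and at 0.39 with both gates below 1% (adjusted p = 0.037). Atp1b2, a beta subunit of the sodium pump, averaged 279 ± 89 CPM in the pericyte gate, 55.5 ± 32.2 in endothelium and 391.7 ± 73 in smooth muscle, and its difference from smooth muscle was -0.39 in the whole gate and 0.86 with both below 1% (adjusted p = 2.2e-07).

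Vasoactive and cyclic nucleotide genes followed, with 6 of 8 higher and 2 lower against endothelium (14% and 17.6% of all genes). Against smooth muscle 2 of 10 were higher, 7 lower and 1 did not pass (26.6% higher and 23.5% lower of all genes). P2ry14, a receptor for UDP-sugars, averaged 335 ± 103 CPM in the pericyte gate, 20.2 ± 13.8 in endothelium and 135 ± 49 in smooth muscle, with differences of 3.95 ± 0.17 and 1.22 ± 0.12. Gucy1b3, the beta subunit of the soluble guanylate cyclase that senses nitric oxide, averaged 391 ± 95, 34.3 ± 20.8 and 531 ± 106 CPM. Its difference from smooth muscle was -0.45 ± 0.09 in the whole gate and 0.70 with both below 1% (adjusted p = 1.8e-06). With both below 1%, 3 of the 7 genes tested were higher than in smooth muscle, 1 was lower and 3 did not pass, with a median of 0.26 in place of -0.79. Ramp2, a subunit of the adrenomedullin receptor and an endothelial gene, was lower than in endothelium (-0.71 ± 0.07) and higher than in smooth muscle (1.49 ± 0.13). In pericyte-gated barcodes below 1% Ramp2 averaged 39.3 ± 51.3 CPM, below its 209 ± 130 in the undivided smooth muscle gate.

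Transporters split evenly against endothelium, with 4 higher and 4 lower of 8 tested (14% and 17.6% of all genes). Of 5 tested against smooth muscle, 3 were higher, 1 lower and 1 did not pass (26.6% higher and 23.5% lower of all genes). Slc6a20a, an imino acid transporter, averaged 471 ± 118 CPM in the pericyte gate, 34.0 ± 23.0 in endothelium and 67.0 ± 43.8 in smooth muscle (3.96 ± 0.16 and 2.61 ± 0.13). Slc38a11, of the amino acid transporter family, averaged 234 ± 69, 12.7 ± 12.9 and 474 ± 173 CPM. It was lower than in smooth muscle in the whole gate (-1.01 ± 0.11), and its difference was -0.11 with both gates below 1%. In CPM it stood there at 416 ± 217 against 572 ± 219, lower in 11 of 15 libraries. Slc19a1, the reduced folate carrier, was higher than in endothelium (3.37 ± 0.23), and its difference from smooth muscle was 0.27 ± 0.14 (adjusted p = 0.116). With both gates below 1% it was 1.56, higher in 15 of 15 libraries, where Slc19a1 passed the filter through the pericyte gate alone.

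The hormone receptors were of interest because tamoxifen acts on estrogen receptors. Esr1 had 59 UMIs in all the gated barcodes and was too low to be tested. It stood at 80.1, 26.2 and 0 CPM in the wild-type oil mice, 43.8, 11.6, 34.0, 37.0 and 38.8 in the wild-type tamoxifen mice, 10.8, 22.5, 13.8 and 35.1 in the Esr1cKO oil mice and 27.3, 55.7, 9.98 and 50.05 in the Esr1cKO tamoxifen mice. Its mean of 31.1 ± 20.4 CPM (SD, n = 16) lay below the 45.8 CPM of the other kept barcodes. Esr2 had 25 UMIs and Pgr 10.

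Gper1, a membrane receptor that has been described as binding estrogen, was measured in every library. It reached 26.7, 149 and 151 CPM in the wild-type oil mice, 98.5, 175, 155, 153 and 186 in the wild-type tamoxifen mice, 108, 127, 228 and 112 in the Esr1cKO oil mice and 118, 139, 124.8 and 179 in the Esr1cKO tamoxifen mice. Mean Gper1 was 139 ± 45 CPM against 11.1 ± 11.6 in endothelium (3.47 ± 0.24) and 243 ± 82 in smooth muscle (-0.76 ± 0.12, adjusted p = 5.1e-07). With both gates below 1% its difference from smooth muscle was 0.44 (adjusted p = 0.035), higher in 10 of 15 libraries. Mean CPM there was 299 ± 138 against 262 ± 106, and other scalings were not run in this setting. Of the 5 hormone receptors tested against endothelium, 1 was higher, 3 lower (Nr3c1 and Igf1r among them) and 1 did not pass. Igf1r, the receptor of insulin-like growth factor 1, stood at 383 CPM above 1% and at 36.9 CPM below it, beside 437 ± 100 CPM in endothelium.

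Of 15 basement membrane and matrix genes, 7 were higher and 3 lower than in endothelium (14% and 17.6% of all genes). Against smooth muscle 6 were higher and 6 lower (26.6% and 23.5% of all genes). Sparc, a collagen-binding matrix protein, averaged 2369 ± 492 CPM in the pericyte gate, below endothelium (-0.25 ± 0.06) and above smooth muscle (1.17 ± 0.09). Sparcl1, its relative, averaged 3432 ± 534 CPM and was lower than in smooth muscle (-1.24 ± 0.09). Aspn, asporin, is a small proteoglycan. Among the genes named by rule that neither gate used, it had the largest log2 difference from endothelium, at 218 ± 49 against 17.4 ± 24.9 CPM (4.12 ± 0.23).

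Among the respiratory chain isoforms Cox4i2, an isoform of a cytochrome oxidase subunit, was higher than in endothelium (156 ± 50 against 12.6 ± 10.2 CPM, 3.55 ± 0.22). Its common counterpart Cox4i1 differed by 0.14 ± 0.07 (adjusted p = 0.112), and in barcodes below 1% by 0.56 (adjusted p = 0.00023). There Cox4i1 averaged 759 ± 277 against 639 ± 79 CPM, higher in 9 of 15 libraries. Of the 6 tested, 1 was higher, 1 lower and 4 did not pass.

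In PDGF, Notch and TGF-beta signalling, 1 of 11 genes was higher than in endothelium (Notch3), 5 lower and 5 did not pass. Of all genes 14% were higher and 17.6% lower. Against smooth muscle 4 of 12 were higher and 4 lower, beside 26.6% and 23.5% of all genes. Id1, a target of BMP signals that is strong in endothelium, averaged 906 ± 294 CPM and was above smooth muscle in the whole gate (0.62 ± 0.11). In pericyte-gated barcodes below 1%, against the undivided smooth muscle gate, Id1 was at -3.07, lower in 15 of 15 libraries. With both gates below 1% it was too low to be tested. Inflammatory and interferon genes were higher in 8 of 9 tests against smooth muscle and lower in 1, and with both gates below 1% all 3 tested were higher. H2-D1 and B2m, of class I antigen presentation, were higher by 0.48 and 0.62, and both passed in that direction with both gates below 1% (H2-D1 by 1.17). Nfkbia, an inhibitor of NF-kB, was higher by 1.02 in the whole gate. In pericyte-gated barcodes below 1%, against the undivided smooth muscle gate, Nfkbia was at -0.75, lower in 14 of 15 libraries. Cxcl12, a chemokine of the vessel wall, averaged 1461 ± 261 CPM against 217 ± 128 in smooth muscle (2.61 ± 0.12) and 1996 ± 349 in endothelium. In pericyte-gated barcodes below 1% it averaged 318 ± 141 CPM. The difference from the undivided smooth muscle gate was then 0.59, higher in 8 of 15 libraries.

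The genes with the largest differences above smooth muscle included Ctla2a (4.47 ± 0.23), Ifitm1 (4.36 ± 0.25), Slc7a5 (4.21 ± 0.26), Slc16a1 (4.19 ± 0.20) and Slc22a8 (4.06 ± 0.19). Apart from Ifitm1, which stood at 43.7 ± 42.3 CPM in endothelium, these are known from brain endothelium. The Slc genes carry amino acids, monocarboxylates and organic anions. All 15 endothelial genes tested were higher than in smooth muscle (median 1.70), and 10 of 11 were lower than in endothelium (median -0.53). The 4 hemoglobin genes were higher than in smooth muscle as well (median 2.53). The summed endothelial list ran from 21239 to 30252 CPM over the 16 libraries, with Bsg its most abundant gene, and none of its 17 genes was at 0.

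Immediate early and stress genes, which rise while tissue is dissociated, were lower than in smooth muscle in 12 of 18 and higher in 1 (23.5% and 26.6% of all genes). Fos averaged 3478 ± 678 CPM in the pericyte gate, 3121 ± 764 in endothelium and 5070 ± 849 in smooth muscle. Klf2, a transcription factor of endothelial shear stress, was lower than in endothelium (-0.45 ± 0.06).

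The second question was whether tamoxifen or the loss of Esr1 changed how many barcodes met the pericyte gate. Their share of kept barcodes was 2.52%, 3.25% and 3.92% in the wild-type oil mice, 2.84%, 2.37%, 4.81%, 3.85% and 3.52% in the wild-type tamoxifen mice, 2.80%, 3.85%, 4.09% and 3.65% in the Esr1cKO oil mice and 4.14%, 3.60%, 4.91% and 3.72% in the Esr1cKO tamoxifen mice. All groups overlapped. Tamoxifen differed from oil by 0.249 percentage points in wild-type mice (exact permutation p = 0.714) and 0.493 in Esr1cKO mice (exact p = 0.371). The genotypes differed by 0.367 under oil (exact p = 0.457) and 0.611 under tamoxifen (exact p = 0.286), with adjusted p from 0.707 to 0.714 over 8 comparisons of shares and ratios. Within successive fours of library numbers, which the labels do not tie to a day, the share was higher in Esr1cKO mice in 3 of 3 fours under oil (by 0.348 in the mean) and in 4 of 4 under tamoxifen (by 0.664). With labels permuted within fours, the exact p were 0.25 and 0.208 (adjusted p = 0.6 for both), and the smallest possible were 0.25 and 0.0417. For the tests over all splits of the mice, without the fours, the smallest possible p runs from 0.0079 to 0.0286.

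Per 100 endothelial-gated barcodes, pericyte-gated barcodes numbered 84.6, 64.2 and 121 in the wild-type oil mice, 226, 148, 139 and 127 in the Esr1cKO oil mice, 159, 101, 84.3, 108 and 105 in the wild-type tamoxifen mice and 224, 64.8, 166 and 73.3 in the Esr1cKO tamoxifen mice. All Esr1cKO oil mice were above all wild-type oil mice, by 69.9 in the mean (exact permutation p = 0.0571, adjusted p = 0.457), which did not pass. With barcodes below 1% endothelial UMIs only, that difference was 9.65 (exact p = 0.6). The paper states that the 4 groups were run in parallel over 4 days, with 4 mice a day. The labels do not say which libraries shared a day. Within the fours, the Esr1cKO and wild-type oil mice had 226 and 84.6 in libraries 1 to 4, 148 and 64.2 in 5 to 8, and 139 and 121 in 9 to 12, while libraries 13 to 16 held no wild-type oil mouse (exact p within fours = 0.25, the smallest possible). Tamoxifen differed from oil by 21.5 in wild-type mice (exact p = 0.339) and -28.1 in Esr1cKO mice (exact p = 0.6), and the genotypes under tamoxifen by 20.3 (exact p = 0.619).

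The third question was whether their gene expression changed. Over 4111 genes, edgeR's quasi-likelihood test with Benjamini-Hochberg adjustment called 0 genes (0%) for tamoxifen in wild-type mice, tamoxifen in Esr1cKO mice, their interaction, and genotype under oil or under tamoxifen. At an unadjusted p under 0.05 the counts were 150 (3.65%), 171 (4.16%), 212 (5.16%), 205 (4.99%) and 154 (3.75%). With the successive fours of library numbers as a block, edgeR also called 0 in each, with 163, 190, 210, 200 and 176 at an unadjusted p under 0.05. DESeq2 also called 0 in each, with 111, 130, 150, 149 and 112 at an unadjusted p under 0.05. In these scaled sums, a change in the mix of barcodes within the gate and a change within each cell cannot be told apart.

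Gper1 differed by 0.30 ± 0.34 for tamoxifen in wild-type mice and -0.07 ± 0.31 in Esr1cKO mice (edgeR adjusted p = 0.9996 and 0.9998). Of the 15 hormone receptors 7 could be tested, and 0 were called in any comparison. Their differences for tamoxifen ran from -0.0025 to 1.34 in wild-type mice and from -1.10 to 0.12 in Esr1cKO mice, with 1 and 2 at an unadjusted p under 0.05. Of the 23 other mural identity genes all were tested, with medians of -0.10 and -0.03 for tamoxifen, beside 0.04 and -0.04 over all genes.

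**Figure D4:**
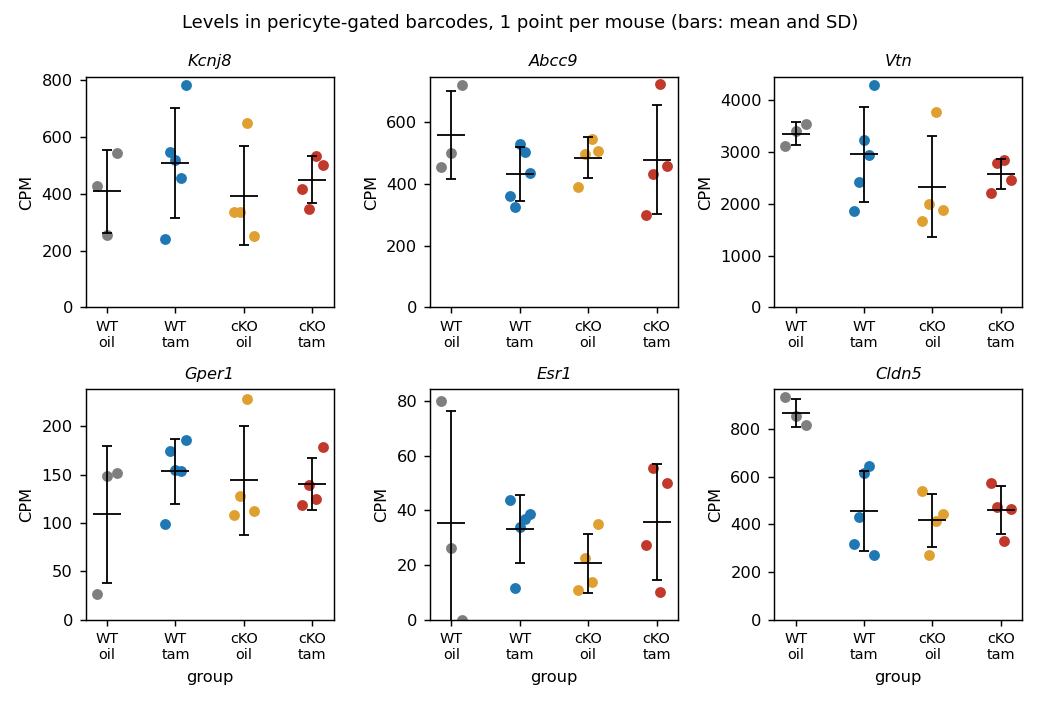
CPM of Kcnj8, Abcc9, Vtn, Gper1, Esr1 and Cldn5 in the pericyte-gated barcodes of each mouse (points) by group, with the group mean and SD. The groups overlap for Kcnj8, Abcc9, Vtn, Gper1 and Esr1, and for Cldn5 the 3 wild-type oil mice lie between 817 and 934 CPM, above all others.

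The genes with the smallest p are given as not passing. Slc1a3, a glutamate transporter of astrocytes that mural cells also hold, came nearest, lower in Esr1cKO than wild-type mice under tamoxifen. It stood at 131, 140, 113, 159 and 101 CPM in the wild-type tamoxifen mice and 45.4, 13.9, 44.9 and 42.9 CPM in the Esr1cKO tamoxifen mice. These groups did not overlap, with a log2 difference of -1.67 ± 0.33 and an edgeR adjusted p of 0.148. The oil mice stood at 80.1, 69.98 and 60.5 CPM in wild-type and 54.2, 127, 96.8 and 56.2 CPM in Esr1cKO, and Esr1cKO oil mouse 2 lay within the range of the wild-type tamoxifen mice. The interaction for Slc1a3 was -2.03 ± 0.51 (adjusted p = 0.897).

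Slc1a3 is itself on the list of 11 astrocyte genes. Between genotypes under tamoxifen, 7 of its 7 genes tested had values below 0 (median log2 difference -0.69), 3 of them at an unadjusted p under 0.05, beside 2211 of all 4111 genes (median -0.03). For the interaction 7 of 7 were below 0 (median -1.10), beside 2295 of 4111 (median -0.08). Of the oligodendrocyte genes, 3 of 4 were below 0 between genotypes under tamoxifen (median -0.77). None of these genes was called, and the part of astrocyte and oligodendrocyte transcripts in the value of Slc1a3 was not tested.

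Pdzd2, a gene for a PDZ domain protein, was first for tamoxifen in wild-type mice, at 53.4, 78.7 and 45.4 CPM under oil and 120, 140, 147, 190 and 101 CPM under tamoxifen (1.26 ± 0.32, adjusted p = 0.9996). The groups did not overlap. Cldn5, which was part of the gate, stood at 934, 857 and 817 CPM in the wild-type oil mice and between 270 and 645 CPM in all the others, a difference that is a description only. Thsd1, an endothelial gene, was first in Esr1cKO mice, at -1.35 ± 0.38 (adjusted p = 0.9998). Under tamoxifen Ptgds, prostaglandin D synthase, an abundant product of the meninges and glia, stood at 930, 1200, 2803, 751 and 4762 CPM in wild-type and 63.6, 0, 99.8 and 358 CPM in Esr1cKO mice, with a log2 difference of -3.89 ± 0.96 (adjusted p = 0.71). In barcodes with at least 3 markers that difference was 0.47. In wild-type oil mice Ptgds ranged from 26.7 to 3770 CPM, so that its spread within a group was as large as the difference. Avp, the vasopressin gene of hypothalamic neurons, reached 1501 CPM in 1 Esr1cKO tamoxifen mouse and 72.7, 0 and 39.9 CPM in the others of that group (log2 difference from oil 3.28 ± 0.94, adjusted p = 0.9998).

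Transcripts of other cell types varied between the mice within the gate. The fibroblast list summed to 401 to 4030 CPM, highest in wild-type oil mouse 1, and the hemoglobin genes to 4675 to 36907 CPM, highest in wild-type tamoxifen mouse 5. The astrocyte list summed to 571 to 1729 CPM, with Atp1b2 (also on the list of channels and pumps) its most abundant gene, and the oligodendrocyte list to 774 to 2922 CPM, with Mbp its most abundant gene, and none of their genes was at 0 in the pooled sums. By mouse, Aqp4 was at 0 in 9 of 16 and Agt in 6, and Mog in 13 and Mag in 6. With tamoxifen 6 of 7 astrocyte genes had values above 0 in wild-type mice, beside 2210 of all 4111 genes, and 6 of 7 had values below 0 in Esr1cKO mice, beside 2276 of 4111, with 0 called. The 4 fibroblast genes tested were below 0 in both (medians -0.78 and -0.81), with 0 called. The neuronal list summed to 337 to 1532 CPM and the microglial list to 23.3 to 314 CPM. Their part in the comparisons of groups was not tested.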

How the data were processed

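The authors deposited, for each of the 16 mice, whole-number UMI counts per gene symbol and barcode, without normalization and without pooling of mice. The submitters' processing notes name STAR 2.6 and the build mm10, and barcodes outside the study's cell filter were still among the deposited counts. The deposited libraries held 2634253 to 8038158 UMIs and 1746 to 5568 kept barcodes. The members and the gene lists were chosen with earlier results of these data known.

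Counts were summed over the gated barcodes of each library with at least 10 of them, and tested with edgeR 4.0.16 (R 4.3.3; TMM, filterByExpr, quasi-likelihood, two-sided, Benjamini-Hochberg, threshold 0.05) in a fit of the 4 groups, or with the library as a block between cell types. Values are CPM of the summed counts. DESeq2 1.42.0 was an alternative. The fits were tested on simulated data. Endothelial barcodes held Cldn5 and at least 1 of Ly6c1, Itm2a, Flt1, Pltp and Slco1a4, with no Gkn3 or Bmx, and smooth muscle barcodes at least 2 of Acta2, Myh11 and Tagln and 3 UMIs of them. A barcode of the pericyte gate stayed there whatever other gate it met, so the 558 with a Cldn5 UMI were included, and barcodes that met more than 1 other gate were left out of those types. Doublets were neither called nor removed.

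Shares were compared with exact permutation tests over mice. Exact Clopper-Pearson intervals at 95% cover counting error only. The genes named were the gate genes, list genes by role with the most UMIs first, the 5 smallest p of each group comparison, and for cell types the 12 largest differences each way at 100 CPM or more that held in every library. Alternatives were other scalings, filters, gates and libraries left out. Sequences are from RefSeq GRCm38.p6, read upstream of the annotated start. Some genes that met the naming rule are not reported here.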

Additional observations from a re-analysis of the deposited data

Results flagged for a closer look

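In each group of 4 or 5 mice, the highest or lowest value of 14 measures was set against the others by Dixon's ratio of its gap to the group's range. Of 42 groups tested, 4 had such a value, and chance gives about 1 in 20.

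Vtn reached 3774 CPM in Esr1cKO oil mouse 3, against 1668 to 2001 CPM in the other mice of that group (gap over range 0.842). In the same mouse Gper1 reached 228 CPM, against 108 to 127 CPM (0.841). This library also had the highest share of gated barcodes with under 1% endothelial UMIs, 52.9%, and its part in these values was not tested.

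Higd1b reached 861 CPM in wild-type tamoxifen mouse 5, against 641 to 677 CPM in the others (0.835). Avp reached 1501 CPM in Esr1cKO tamoxifen mouse 4, against 0 to 72.7 CPM in the others (0.952). Vtn and Higd1b chose the barcodes, so their values are a description.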

How the results depend on the processing

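No gene was called in a comparison of groups under most alternatives, among them the block of successive fours of library numbers. Without a filter on low counts, edgeR called 3 genes for tamoxifen in wild-type mice, 7 in Esr1cKO mice, 9 for the interaction, and 6 and 5 for genotype under oil and tamoxifen. Without wild-type oil mouse 3 and Esr1cKO tamoxifen mouse 3, a choice made after seeing the data, 1 gene (Avp) was called for tamoxifen in Esr1cKO mice and 1 (Avp) for genotype under tamoxifen. Leaving out each mouse in turn gave 0 to 1 calls for genotype under tamoxifen, the 1 being Avp without Esr1cKO tamoxifen mouse 3, and 0 for the other comparisons of groups.

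Calls against endothelium numbered 1297 without the filter, 368 in the oil libraries only and 524 in barcodes under 1% endothelial UMIs, with 765 to 874 when a mouse was left out. Calls against smooth muscle numbered 2253, 652 and 370, with 321 when both gates were below 1%, and 518 in barcodes with no gene of another type, with 997 to 1133 when a mouse was left out. Fewer genes passed the filter in the smaller sums (722 and 617 under 1%). Leaving out barcodes kept in another library gave 795 and 1036.

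Among shares, tamoxifen minus oil in wild-type mice ran from -0.106 (without wild-type oil mouse 1) to 0.593 when a mouse was left out, and was -0.0839 without wild-type tamoxifen mouse 3. In Esr1cKO mice it ran from 0.220 to 0.656, and was -0.157 with mitochondrial UMIs under 5%. The genotypes differed by 0.0121 to 0.711 under oil and 0.334 to 0.945 under tamoxifen. Under 1% endothelial UMIs these were -0.0503 and -0.0155, and the second was -0.258 with mitochondrial UMIs under 5%. Per 100 endothelial barcodes, the differences ran from 8.58 to 37.0, -58.7 to -5.73, 47.7 to 85.4 and -10.2 (without Esr1cKO tamoxifen mouse 1) to 42.7, and the last was -6.96 under 5% mitochondrial UMIs and -1.55 under 1% endothelial UMIs. None of these passed after adjustment. The Cldn5 difference ran from 1.23 to 1.32 when a mouse was left out.

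Among the genes named by rule, directions against smooth muscle reversed in pericyte-gated barcodes under 1% endothelial UMIs, set against the undivided smooth muscle gate, for Notch3 (0.996), Atp1b2 (1.10), Ano1 (0.54), Gucy1b3 (0.90), Gper1 (0.65), Id1 (-3.07), H2-D1 (-0.44), B2m (-0.40) and Nfkbia (-0.75), and with no gene of another type for Notch3 (0.26), Atp1b2 (0.072) and Gucy1b3 (0.093). With both gates below 1%, Notch3 (0.82), Atp1b2 (0.86), Ano1 (0.39), Gucy1b3 (0.70) and Gper1 (0.44) reversed, H2-D1 and B2m kept their direction, and Id1 and Nfkbia were too low to be tested. These fitted values depend on the TMM factors, and other scalings were not run with both gates below 1%. Of 71 list genes in both fits, 6 passed in both with opposite signs, these 5 and Cspg4. The fitted values of Rgs4 (0.25), Slc38a11 (0.20) and Cox4i1 (0.019) also changed sign in the first setting, but did not pass, and their mean CPM stayed lower in pericytes than in smooth muscle. Ptgds was at 0.47 for genotype under tamoxifen with at least 3 markers. The cause was not tested. Of the other values of named genes, 2843 between cell types and 625 between groups kept their direction and side of the threshold, 43 lost their call and 18 gained it, 10 of them between cell types (Cox4i1 against endothelium and Slc19a1 against smooth muscle). From the labels alone no paired analysis was possible because they give no replicate number or day that the groups share. The fours of library numbers, an assumed set, were a block in the fit of groups, and shares were permuted within them, a choice made after seeing the data. Neither called a difference. At 37469 to 265037 UMIs per library, 4111 genes passed the filter for the comparisons of groups, and lower genes were not tested.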
